A study of Mus musculus with 15 samples.

Results

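The genes described here encode 7 RNA-binding proteins that set the lifetime of cytokine and activation mRNAs in T cells, namely Zfp36, Zfp36l1, Zfp36l2, Rc3h1, Rc3h2, Zc3h12a and Elavl1. They were chosen by name as the Zfp36 family, the roquins, regnase-1 and HuR, and each symbol matched 1 gene identifier of GENCODE release M21. The 7 genes were among 55536 annotated genes in the count table, and all 7 were among the 24262 genes that passed the filter on low counts. They had 26 annotated transcripts, and 6 of the 7 genes had 68 of the 138940 splicing events in the percent spliced in (PSI) table, which held none for Zfp36l2.

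In this study, CD8+ T cells of OT-I mice, which carry a transgenic receptor for an ovalbumin peptide, were moved into C57BL/6J recipients. Recipients of the Ag group received antigen with a control rat IgG. Recipients of the Ag+Costim group received antigen with agonist antibodies against OX40 and 41BB, which are 2 costimulatory receptors of the tumour necrosis factor receptor family. Cells were sorted from spleen and lymph nodes, at day 4 by the labels and somewhat earlier by the study's text, and poly(A) RNA was sequenced in 5 libraries per group. Cells of both groups carried the same transgenic receptor, and the study used OT-I mice that lacked Rag1 or Rag2, of either sex and a range of ages, so the results concern 1 receptor specificity. The labels also list 5 libraries of naive, non-transferred OT-I cells, whose counts were not analysed here. The labels number the libraries of a group 1 to 5 and do not name the animal behind each, so the tests measure the spread between libraries.

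The 3 Zfp36 family proteins (tristetraprolin and its relatives) bind AU-rich elements in 3′ untranslated regions (3′ UTRs) and bring in the CCR4-NOT complex, which shortens the poly(A) tail. Roquin-1 and roquin-2, from Rc3h1 and Rc3h2, recognise stem-loops in the 3′ UTRs of mRNAs such as Icos and Tnfrsf4, and regnase-1, from Zc3h12a, is an endonuclease that cuts stem-loop mRNAs such as Il2. HuR, from Elavl1, binds AU- and U-rich sequence as well and is best known for stabilising mRNAs. In activated T cells the paracaspase Malt1 cleaves regnase-1 and the roquins, a control of the protein that a count of mRNA does not measure.

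Coordinates are of mm10, with GENCODE M21 annotation. Zfp36 lies at chr7:28376784-28380253, Zfp36l1 at chr12:80107754-80113013 and Zfp36l2 at chr17:84183931-84187947, all on the minus strand. Rc3h1 lies at chr1:160906418-160974978 on the plus strand, and Rc3h2 at chr2:37370069-37422903 on the minus strand. Zc3h12a lies at chr4:125118423-125127840 and Elavl1 at chr8:4285382-4325413, both on the minus strand. Of these, Zc3h12a alone overlapped no other annotated gene. Zfp36, Zfp36l1, Zfp36l2 and Elavl1 overlap a gene on the other strand (Gm44710, Gm26669, AC132455.1 and Ccl25), and the strand setting of the counting is not given in the sources used here, so reads of such pairs cannot be told apart where they overlap. Rc3h1 overlaps Gm37052, Gm37653 and Gm37809, and Rc3h2 overlaps Snord90, on the same strand.

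The longest annotated 3′ UTRs of these regulators carry AU-rich motifs themselves. For Elavl1 and Rc3h1 the nonamers lie past the proximal 3′ end, and measures of the use of these ends differ, as given below. These windows of at most 29 bases show the first match to the nonamer TTATTTATT after the stop codon in the transcript with the longest 3′ UTR. Capitals mark the nonamer, and the letters are those of the GENCODE M21 transcripts, 5′ to 3′ on the transcript strand.
Zfp36-201: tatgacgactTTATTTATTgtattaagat
Zfp36l1-201: aactgttggaTTATTTATTttagaaattc
Zfp36l2-201: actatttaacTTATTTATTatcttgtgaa
Rc3h1-202: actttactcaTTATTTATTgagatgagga
Rc3h2-202: caaagacattTTATTTATTttactctgta
Elavl1-201: gtcatgaaaaTTATTTATTtatttattta
The windows lie at chr7:28376951-28376979, chr12:80108167-80108195, chr17:84184914-84184942, chr1:160970043-160970071, chr2:37373287-37373315 and chr8:4285788-4285816, in this order.

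The nonamer was found in 6 of the 7 longest 3′ UTRs and not in that of Zc3h12a, against 8.19% of the 15515 tested genes with an annotated 3′ UTR. Motifs were searched on the transcript strand only, and overlapping matches were counted. Elavl1 had 8 overlapping matches, all in the 2961 bases that follow its proximal 3′ end, and the other 5 genes had 1 each. Length matters for such counts: among 3′ UTRs within 20% of the length, 17.6% held the nonamer at the length of Elavl1 (4218 bases), 27.5% at that of Rc3h1 (7181 bases), 21.4% at that of Rc3h2 (5331 bases) and 4.24% at that of Zfp36 (774 bases). For Zfp36l1 and Zfp36l2 (1835 and 1822 bases), the shares were 9.77% and 9.71%, and for Zc3h12a (856 bases) 5.03%. The shorter pentamer ATTTA, which was found in 68.6% of all these 3′ UTRs and lies within each nonamer, occurred 25 times in Rc3h2, 20 times in Rc3h1, 17 times in Elavl1, 9 times in Zfp36l1, 5 times in Zfp36l2 and 3 times each in Zfp36 and Zc3h12a. Among 3′ UTRs of similar length, the median number was 9 for Rc3h2, 13 for Rc3h1 and 7 for Elavl1. It was 3 for Zfp36l1 and Zfp36l2 and 1 for Zfp36 and Zc3h12a. As many or more were found in 1.36% of such 3′ UTRs for Rc3h2, 18% for Rc3h1, 3.68% for Elavl1 and 4.41% for Zfp36l1. For Zfp36l2, Zfp36 and Zc3h12a the shares were 27%, 17.6% and 20.6%. These are matches of letters, and binding was not measured.

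Estimated totals ran from 59.6 to 449 M (mega) counts per library in Ag and from 332 to 639 M in Ag+Costim, so each of the 7 genes had at least 379 counts in every library. Levels are given as CPM, counts scaled to a common library total with TMM factors. Ag libraries 1 and 4 stood apart from the others on the first principal component of the genes at 10 CPM or more, which took 68.0% of the variance. Their 12 cell cycle genes summed to 980 and 1030 CPM, against 4940 CPM in Ag library 3 and 7820 to 10000 CPM in the other 7 libraries. B cell markers (6 genes) summed to 135, 348 and 188 CPM in Ag libraries 1, 3 and 4 and to 30.6 to 51.0 CPM in the other 7, and erythroid markers (6 genes) to 1100 CPM in Ag library 3 and 3.80 to 126 CPM elsewhere. Each of the 8 CD8 T cell markers was present in every library, with sums of 3940 to 7530 CPM, and Cd4 stayed at or under 5.07 CPM. The sum of 4 CD4 T cell markers, Cd4 among them, was highest in Ag libraries 1 and 4, at up to 26.4 CPM. It was 3.16 to 8.79 CPM in all other libraries. Of these markers, Zbtb7b and Cd40lg were also highest in Ag libraries 1 and 4. The origin of their RNA was not tested. In bulk RNA, fewer cells of a type and less RNA per cell cannot be told apart.

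None of the 7 genes separated the groups. At the gene level, edgeR called 0 of 7, against 0% of all 24262 genes tested, and 0 of the 7 had an unadjusted p under 0.05. Of all genes tested, 1915 were higher and 2586 lower in Ag+Costim at that p. For each of the 7 genes the ranges of Ag and Ag+Costim overlapped, where 4.48% of all genes tested had no overlap and were higher in Ag+Costim and 1.13% had no overlap and were lower. DESeq2 also called 0 of 7, against 14.3% of its 43379 genes with an adjusted p (778 higher and 5436 lower in Ag+Costim). The voom test of limma with a quality weight per library called 5 of 7, 1 higher and 4 lower in Ag+Costim, against 25.8% of all genes higher and 26.4% lower. Its weights for Ag libraries 2 and 5 were 0.0986 and 0.0656, against 0.508 to 2.00 for the other Ag libraries and 1.70 to 3.35 for the Ag+Costim libraries.

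Zfp36l1 showed the widest range of the 7 genes in Ag, 6.66-fold from lowest to highest. It stood at 74.8, 20.6, 26.1, 84.8 and 12.7 CPM in Ag libraries 1 to 5 and at 25.9, 27.4, 29.9, 23.8 and 22.4 CPM in Ag+Costim libraries 1 to 5. The levels in Ag libraries 1 and 4 lay above all others and those in Ag libraries 2 and 5 below all others, so the 5 Ag+Costim libraries lay inside the Ag range. The difference was -0.76 on the log2 scale (SE 0.47, 95% interval -1.79 to 0.27, edgeR adjusted p = 0.339, n = 5 per group). Without Ag libraries 1 and 4 it was 0.41 in the other direction (adjusted p = 0.40), and with voom weights -1.43 (adjusted p = 0.000349).

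Zfp36l2, whose product acts with Zfp36l1 in developing lymphocytes, stood at 85.6, 47.1, 47.7, 125.8 and 41.7 CPM in Ag and at 56.4, 77.7, 83, 39.9 and 48.9 CPM in Ag+Costim. Again Ag libraries 1 and 4 were the highest, and the other 3 Ag libraries overlapped the lower Ag+Costim libraries. The difference was -0.19 (SE 0.34, 95% interval -0.93 to 0.56, edgeR adjusted p = 0.734), and it turned to 0.15 without Ag library 4 and to 0.44 without Ag libraries 1 and 4.

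Zfp36, the gene of tristetraprolin, varied least in the family. It was at 47.8, 38.6, 33.1, 55.9 and 34.7 CPM in Ag and at 39.4, 37.9, 42.2, 32.2 and 37.1 CPM in Ag+Costim, a 1.69-fold range in Ag and a 1.31-fold range in Ag+Costim. The highest of the 10 were once more Ag libraries 1 and 4. The difference was -0.15 (SE 0.17, 95% interval -0.52 to 0.21, edgeR adjusted p = 0.559) and 0.10 without those libraries, while voom weights gave -0.39 (adjusted p = 0.0205).

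**Figure D1:**
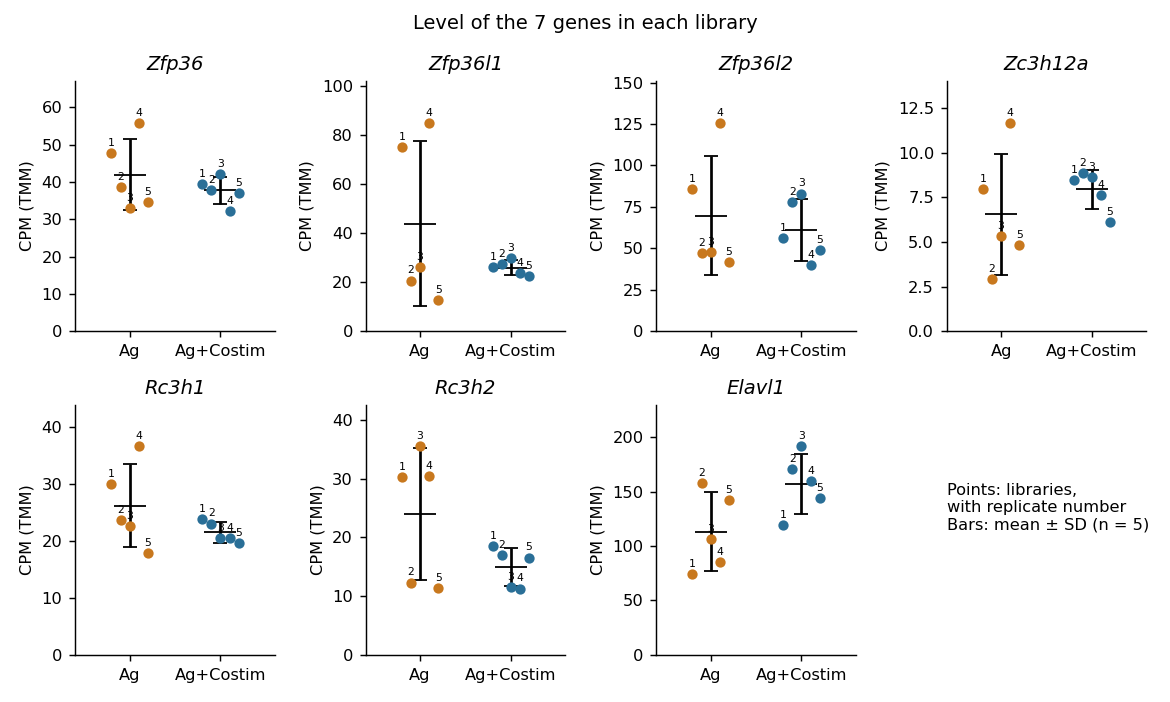
Level of each of the 7 genes (vertical axis, CPM with TMM factors, starting at 0) in the 5 Ag and 5 Ag+Costim libraries. Points are libraries with their replicate number, and bars give the mean ± SD (n = 5). Ag libraries 1 and 4 are the highest 2 points for Zfp36, Zfp36l1, Zfp36l2 and Rc3h1 and the lowest 2 for Elavl1, and the groups overlap in all 7 panels.

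Rc3h1, which encodes roquin-1, was at 30, 23.7, 22.6, 36.5 and 17.8 CPM in Ag and at 23.7, 23, 20.5, 20.4 and 19.6 CPM in Ag+Costim. It was highest in Ag libraries 1 and 4 and lowest in Ag library 5, with Ag+Costim in a narrow band between. The edgeR difference was -0.28 (SE 0.19, 95% interval -0.70 to 0.13, adjusted p = 0.362), and without Ag libraries 1 and 4 it was 0.02.

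Rc3h2, which encodes roquin-2, followed another set of Ag libraries. It was at 30.3, 12.3, 35.5, 30.4 and 11.4 CPM in Ag and at 18.5, 17, 11.6, 11.3 and 16.6 CPM in Ag+Costim. Ag libraries 1, 3 and 4, in which B cell markers summed to 135 CPM or more, lay above all others, whereas Ag libraries 2 and 5 lay within the Ag+Costim range. Those 3 libraries also had a count for 40441 to 51778 genes, against 20714 to 30340 genes in the other 7, and the part of either in the level of Rc3h2 was not tested. The difference was -0.68 (SE 0.33, 95% interval -1.42 to 0.06, edgeR adjusted p = 0.282), and it kept its direction without Ag libraries 1 and 4 (-0.37, adjusted p = 0.605).

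Zc3h12a was the least abundant of the 7 by counts. It was at 7.98, 2.93, 5.34, 11.7 and 4.81 CPM in Ag and at 8.47, 8.86, 8.62, 7.62 and 6.12 CPM in Ag+Costim. Ag library 4 was above, and Ag libraries 2, 3 and 5 were below, all Ag+Costim libraries, and Ag library 1 lay among them. The difference was 0.28 (SE 0.33, 95% interval -0.44 to 0.998, edgeR adjusted p = 0.594), 0.88 without Ag libraries 1 and 4 (adjusted p = 0.184) and -0.10 when libraries were scaled by their total counts.

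Elavl1, the gene of HuR, was lowest in Ag libraries 1 and 4, in which Zfp36, Zfp36l1, Zfp36l2 and Rc3h1 were highest. It was at 74.5, 158.1, 106.6, 85.1 and 142.4 CPM in Ag and at 119.1, 170.8, 191.5, 159.4 and 143.9 CPM in Ag+Costim. Ag libraries 1, 3 and 4 lay below all Ag+Costim libraries, and Ag libraries 2 and 5 lay among them. The difference was 0.47 (SE 0.23, 95% interval -0.03 to 0.97, edgeR adjusted p = 0.281), and it was 0.22 without Ag libraries 1 and 4 (adjusted p = 0.547) and 0.84 with voom weights (adjusted p = 0.00222).

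TMM scaling left the median log2 difference of the 8626 genes at 10 CPM or more at 0.24, and total-count scaling left it at 0.00038. Relative to that median, Zfp36, Rc3h1 and Rc3h2 lay below it and Elavl1 above it under each of the 19 settings run, with Elavl1 at 0.23 under TMM and between 0.07 and 0.40 overall. Zfp36l1 and Zfp36l2 lay below it in 18 of 19, the exception being the fit without Ag libraries 1 and 4. Zc3h12a lay above it in 12 of 19 and below it in 7, total-count scaling among them. In the list of 7 genes the median difference was -0.19, and over all genes tested it was -0.32. Since none passed the main test, these are positions of estimates and not called differences.

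**Figure D2:**
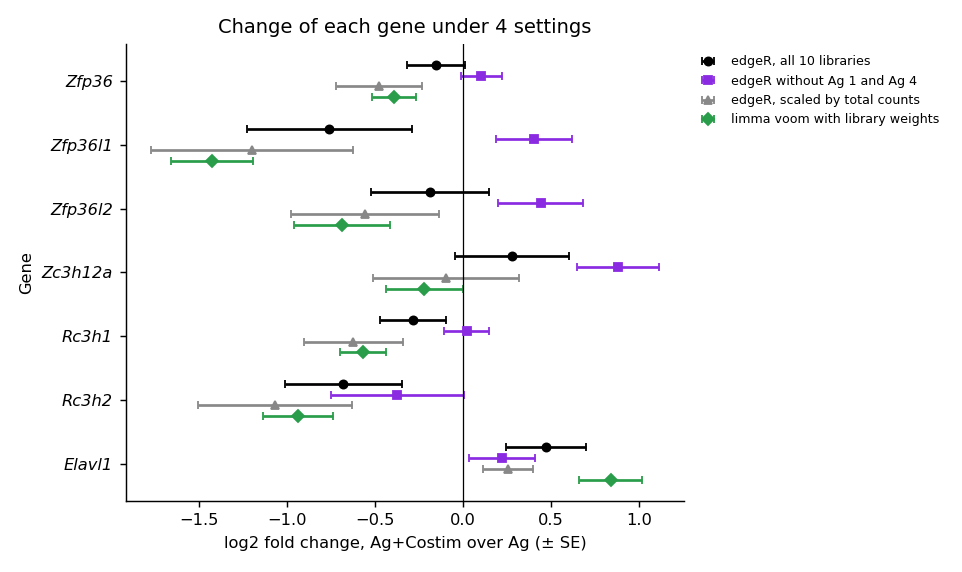
Difference between Ag+Costim and Ag for each gene (horizontal axis, log2 fold change) with its standard error under 4 settings, namely edgeR with all 10 libraries, edgeR without Ag libraries 1 and 4, edgeR with total-count scaling and limma voom with library weights. Zfp36l1 moves from -0.76 to 0.41 when Ag libraries 1 and 4 are left out, whereas Elavl1 stays above 0 and Rc3h2 below 0 under all 4.

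Spread between libraries was larger in Ag than in Ag+Costim for each of the 7 genes. The SD of log2 CPM was 1.18 in Ag and 0.16 in Ag+Costim for Zfp36l1, a ratio of 7.27, and the ratio was 1.54 for Zfp36l2 and 1.79 for Elavl1. This was general, as the ratio was above 1 for 96.5% of the genes at 10 CPM or more, with a median of 3.92. Ag libraries 1 and 4 were the highest 2 of the 10 for 4 of the 7 genes (Zfp36, Zfp36l1, Zfp36l2 and Rc3h1), against 13.3% of the genes at 10 CPM or more. They were the lowest 2 for Elavl1, which 39.6% of those genes shared.

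Per length, Elavl1 was the most abundant of the 7 mRNAs. Levels per length were taken as TPM, transcript counts divided by annotated length and scaled to a common total. In Ag+Costim the order of the mean TPM was Elavl1 (80.0 ± 16.8), Zfp36l2 (26.5 ± 8.11), Zfp36 (20.9 ± 2.23), Zfp36l1 (13.2 ± 1.52), Zc3h12a (4.44 ± 0.602), Rc3h2 (3.64 ± 0.978) and Rc3h1 (3.17 ± 0.246, all SD, n = 5). Zfp36l2 and Zfp36 overlapped in that order, as did Zc3h12a with Rc3h2 and Rc3h2 with Rc3h1, and the other neighbours did not. In Ag the order was Elavl1 (59.5 ± 16.1), Zfp36l2 (36.9 ± 25.1), Zfp36l1 (28.8 ± 25.6), Zfp36 (27.3 ± 11.6), Rc3h2 (7.67 ± 4.84), Rc3h1 (4.72 ± 2.06) and Zc3h12a (4.64 ± 3.04). There, only the step from Zfp36 to Rc3h2 separated neighbours in all 5 libraries. Both orders rest on the transcripts to which counts were assigned. For Rc3h1 these were mostly of Rc3h1-202 (11006 bases). The PSI of its proximal end, which is that of Rc3h1-201 (3476 bases), was 0.789 in Ag and 0.861 in Ag+Costim. The order with other transcript lengths was not tested.

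The balance between the Zfp36 family and Elavl1 was taken within each library as the ratio of their TPM. The 3 family members together stood at 2.59, 0.582, 1.08, 4.48 and 0.575 times Elavl1 in Ag libraries 1 to 5 and at 1.01, 0.807, 0.71, 0.627 and 0.703 times Elavl1 in Ag+Costim libraries 1 to 5. The ratio was over 2 only in Ag libraries 1 and 4, the libraries with cell cycle sums of 980 and 1030 CPM, and Ag library 3 lay between them and the rest on both measures. Ag libraries 2 and 5 lay below all Ag+Costim libraries. TPM rests on the split of counts between transcripts, here Elavl1-201 (5743 bases) and Elavl1-204 (2317 bases). With 17.5% of its counts on Elavl1-204, Elavl1 stood at 38.3 TPM and 85.1 CPM in Ag library 4. With 66.1% it stood at 56.7 TPM and 74.5 CPM in Ag library 1. The part of that split in the ratio was not tested. This balance was chosen after the levels were seen, and it is given as a description.

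**Figure D3:**
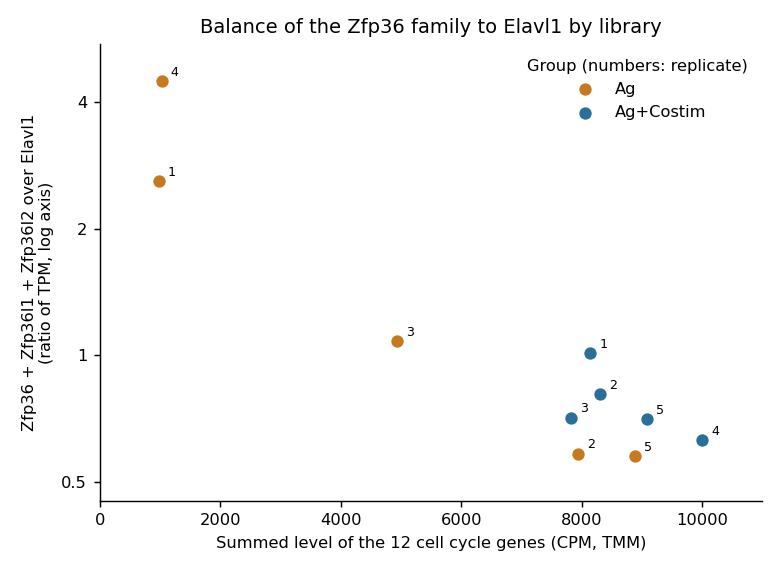
Ratio of the summed TPM of Zfp36, Zfp36l1 and Zfp36l2 to the TPM of Elavl1 (vertical axis, log scale) against the summed CPM of the 12 cell cycle genes (horizontal axis), with 1 point per library and its replicate number. Ag libraries 1 and 4 lie at 2.59 and 4.48 with 980 and 1030 CPM of cell cycle genes, and the 5 Ag+Costim libraries lie between 0.627 and 1.01 with 7820 to 10000 CPM. The TPM of Elavl1 depends on how its counts were split between transcripts of unlike length.

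Genes of like pattern were named as the 3 with the highest Pearson correlation of log2 CPM over the 10 libraries, among genes at 10 CPM or more. These correlations rest in part on Ag libraries 1 and 4, so the value over the other 8 is given too. The named genes stood among many, as 485 genes had r over 0.9 with Elavl1, 252 with Zfp36l1, 244 with Zfp36, 123 with Rc3h1, 65 with Zfp36l2, 30 with Zc3h12a and 22 with Rc3h2. For Zfp36 they were Traf1 (r = 0.984, and 0.948 without those libraries), Nrip1 and Cir1. For Zfp36l1 they were Tk2, Chd3 and Sesn3 (r = 0.982 each, and 0.886 to 0.921 without), and for Zfp36l2 Gbp4 (0.971 and 0.947), Rasa1 and Ppp1r16b. Rc3h1 was most like Tha1 (0.972 and 0.870), Zfp950 and Trp53inp1. Rc3h2 was most like AC149090.1 (0.966 and 0.954), Vps13d and Cspp1. Zc3h12a was most like Wdr91 (0.968 and 0.956), Ddit4 and Styx. For Elavl1 they were Donson, which acts at DNA replication forks (0.986 and 0.964), Nol9 and E2f1, a transcription factor of the cell cycle (0.984 and 0.953).

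Among themselves, Zfp36l1 and Rc3h1 had the highest correlation of log2 CPM (r = 0.919), and it was 0.618 without Ag libraries 1 and 4. Zfp36 and Zfp36l2 had r = 0.910, and 0.763 without those libraries. Elavl1 and Rc3h2 had r = -0.853, and -0.773 without them, the most negative value among the 21 pairs. For Elavl1 and Zfp36l1 the value went from -0.729 to 0.124.

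Each gene was next examined for the use of its transcripts, which decide the length of the 3′ UTR and the end of the protein. The edgeR test of transcript usage covered 5 of the 7 genes, as Zfp36l1 and Zfp36l2 had 1 expressed transcript each (Zfp36l1-201 and Zfp36l2-201). It called 0 of 5, against 0.297% of the 10441 genes tested, and 0 of the 5 had an unadjusted gene-level p under 0.05. Of the 5, Zc3h12a had the smallest edgeR adjusted p, at 0.804. The diffSplice test of limma also called 0 of 5, with 1 unadjusted p under 0.05, that of Rc3h1 (limma adjusted p = 0.314).

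Elavl1 was read from a pair of protein-coding transcripts with the same coding sequence of 978 bases but different first exons and 3′ ends. Elavl1-204 ends at the proximal position (chr8:4288343) and Elavl1-201 at the distal one (chr8:4285382), so the 8 nonamer matches lie in Elavl1-201 alone. Elavl1-204 took 66.1%, 75.8%, 46.7%, 17.5% and 67.0% of the gene's counts in Ag libraries 1 to 5 and 57.3%, 58.6%, 71.5%, 52.3% and 65.9% in Ag+Costim libraries 1 to 5. Ag library 4 was low and the other Ag libraries overlapped Ag+Costim. The difference was 6.53 percentage points (two-sided exact permutation test, p = 0.659), and it was -2.74 without Ag library 4 and -2 without Ag libraries 1 and 4.

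Whippet's table gave another picture of the same ends, with 1 PSI value per group and no replicate. The proximal end of Elavl1 stood at 0.986 (Ag) and 0.995 (Ag+Costim), and the first exon of Elavl1-204 (chr8:4312557-4312619) at 0.0301 and 0.05. The end of Elavl1-204 thus had a high PSI and its first exon a low one, whereas its share of counts takes the transcript as a whole.

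Rc3h1 was read almost wholly from Rc3h1-202, with 93.1% to 99.5% of the counts in Ag and 95.3% to 98.6% in Ag+Costim (difference -0.463 percentage points, exact permutation p = 0.738). Rc3h1-202 carries the distal 3′ end, 7161 bases beyond that of Rc3h1-201, which leaves a 3′ UTR of 20 bases with no ATTTA. The PSI table placed the weight on the proximal end, at 0.789 in Ag and 0.861 in Ag+Costim, with the distal end at 0.211 and 0.139. These paired values sum to 1 and so are not independent, and the transcript counts and the PSI do not rank the ends alike.

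Rc3h1-202 and Rc3h1-201 also differ by 27 coding bases at an alternative acceptor (chr1:160964950-160964976, plus strand), shown with 20 bases on either side because both forms keep the reading frame. Capitals mark the 27 bases.
Rc3h1-202: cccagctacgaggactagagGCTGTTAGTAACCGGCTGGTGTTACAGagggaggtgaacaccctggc
Rc3h1-201: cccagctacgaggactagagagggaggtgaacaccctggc
Coding sequences are 3390 and 3363 bases, a difference of 9 codons (1130 against 1121). The PSI of the 27 bases was 0.938 (Ag) and 0.939 (Ag+Costim). From transcript counts per length it was 98.5%, 100%, 83.5%, 95.5% and 93.3% in Ag and 95.7%, 91.6%, 90.8%, 86.8% and 93.6% in Ag+Costim (exact permutation p = 0.484).

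Rc3h2 had the most varied transcripts of the 7 genes. Rc3h2-202 took 58.7%, 8.86%, 41.3%, 36.7% and 69.1% of its counts in Ag libraries 1 to 5 and 43.9% to 61.7% in Ag+Costim (difference 10.4 percentage points, exact permutation p = 0.413). Rc3h2-201 took 21.1%, 57.7%, 30.5%, 36.6% and 17.8% in Ag and 10.1% to 32.7% in Ag+Costim (difference -12.8, p = 0.175 by the same exact test). Ag library 2 was the lowest for Rc3h2-202 and the highest for Rc3h2-201, on 3903 counts of the gene. Without that library the differences were 1.93 points for Rc3h2-202 and -6.59 for Rc3h2-201. The third protein-coding form, Rc3h2-203, took 0% to 15.7% in Ag and 2.51% to 26.7% in Ag+Costim (p = 0.254 by the same exact test).

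**Figure D4:**
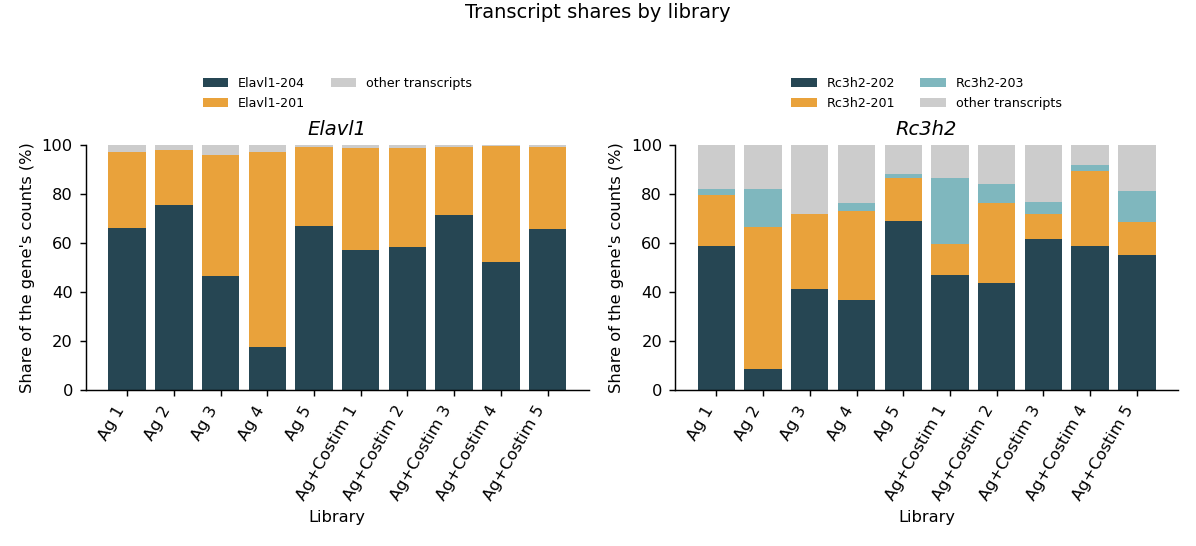
Share of the counts of Elavl1 (left) and Rc3h2 (right) on each main transcript (vertical axis, percent of the gene's counts, stacked to 100) in the 10 libraries. Ag library 4 stands out for Elavl1, with 17.5% on Elavl1-204, and Ag library 2 for Rc3h2, with 8.86% on Rc3h2-202, while both genes vary within Ag+Costim as well.

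Rc3h2-201 and Rc3h2-202 differ at an alternative donor of 19 bases (chr2:37376642-37376660, minus strand), shown because its use shifts the reading frame near the end of the protein. Capitals mark the 19 bases.
Rc3h2-201: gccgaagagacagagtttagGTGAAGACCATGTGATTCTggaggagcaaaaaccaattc
Rc3h2-202: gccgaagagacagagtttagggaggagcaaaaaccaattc
With the 19 bases the coding sequence is 3561 bases (1187 codons) and ends 211 bases after the point where the forms part. Without them it is 3375 bases (1125 codons) and ends 25 bases after that point, both at a stop codon of the annotated transcript.

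For the 19 bases, the table gave a PSI of 0.626 (Ag) and 0.721 (Ag+Costim). Their inclusion by transcript counts per length was 30.3%, 90.4%, 42.9%, 54.5% and 24.6% in Ag libraries 1 to 5 and 53.4%, 52.6%, 30.0%, 36.9% and 38.6% in Ag+Costim libraries 1 to 5. The Ag libraries spanned the whole Ag+Costim range, and the difference of the means was -6.25 percentage points, opposite in sign to that of the PSI (two-sided exact permutation test, p = 0.683). An exon of 36 bases in the 5′ untranslated region of Rc3h2 (chr2:37419432-37419467) stood at a PSI of 0.843 (Ag) and 0.741 (Ag+Costim). By transcript counts its inclusion was 79.6% ± 30.4 (Ag) and 74.6% ± 14.5 (Ag+Costim, SD, n = 5, exact permutation p = 0.786).

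Of the 68 events, 8 differed by more than 0.05 in PSI, against 11.9% of all 138940 events, and 3 by more than 0.1, against 5.87%. The 8 lay in Rc3h2 (4), Rc3h1 (2) and Zfp36 (2), where both ends of the tandem pairs of Rc3h1 and Zfp36 are counted although each pair moves as 1. Besides the events above, they were tandem 3′ ends only a few bases apart. In Rc3h2 the end at chr2:37370073 went from 0.00253 to 0.154 and the end 4 bases farther on from 0.965 to 0.846. In Zfp36 the end 7 bases farther on went from 0.0370 to 0.117 and its partner from 0.963 to 0.883. Of the 46 core exons, 45 had a PSI over 0.95 in both groups, and 41 were higher in Ag+Costim, where 79.5% of all 108413 core exons were. The median difference over the 46 was 0.00396, and over all core exons 0.00126.

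**Figure D5:**
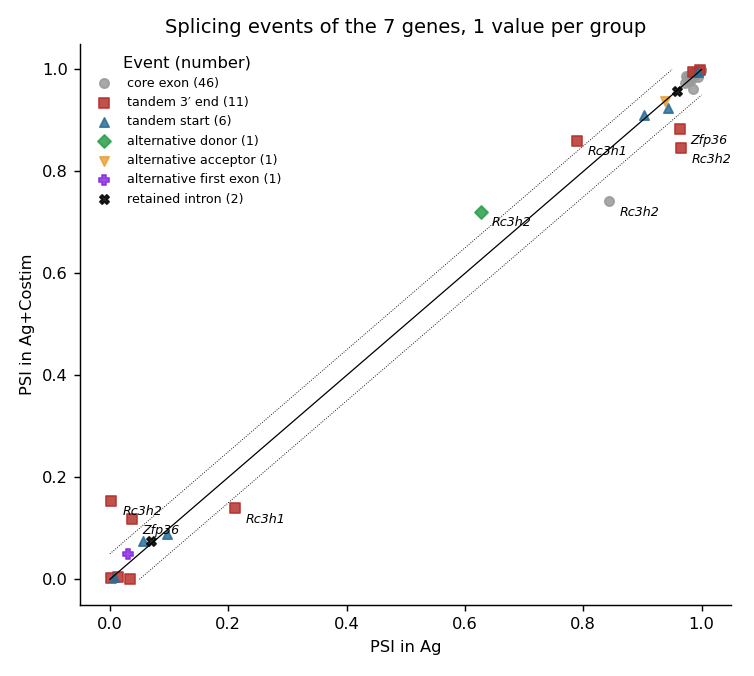
PSI in Ag (horizontal axis) against PSI in Ag+Costim (vertical axis) for the 68 splicing events, with 1 pooled value per group and no error. The line marks equal values and the dotted lines a difference of 0.05, and the 8 events beyond them belong to Rc3h2, Rc3h1 and Zfp36 and are mostly tandem 3′ ends.

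Retained intron transcripts took 2.38% ± 1.34 of Elavl1 counts for Ag and 0.732% ± 0.352 for Ag+Costim (SD, n = 5). By library they took 2.84%, 1.70%, 4.08%, 2.75% and 0.522% in Ag and 1.26%, 0.898%, 0.469%, 0.409% and 0.620% in Ag+Costim, so 4 of 5 Ag libraries lay above all Ag+Costim libraries. The raw exact permutation p was 0.0317, and 0.222 after Benjamini-Hochberg adjustment over the 14 shares compared, so the difference did not pass. Rc3h1 had the same p, on at most 40 counts. For Rc3h2 the retained intron transcripts took 19% ± 6.60 for Ag and 14% ± 3.88 for Ag+Costim (exact permutation p = 0.183), the largest share among the 7 genes. Zc3h12a-201, which encodes the full regnase-1, took 95.8% to 99.9% of its gene and Zfp36-201 87.7% to 95.9% (raw exact permutation p = 0.0714 and 0.373). The other counts of Zfp36 were of Zfp36-202, a transcript of 1 exon that spans the intron. It is annotated as protein-coding, so it was not among the retained intron transcripts. The PSI of that intron was 0.0688 in Ag and 0.0749 in Ag+Costim.

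Partners and relatives of the 7 proteins were read from lists. Of 15 related RNA-binding proteins and regulators, 13 were tested, and Zfp36l3 and Elavl4 did not pass the filter. edgeR called 0 of 13 (7 with an unadjusted p under 0.05, 4 higher and 3 lower), DESeq2 6 and voom 9, and the median difference was 0.15. Over all 24262 genes tested, 1915 were higher and 2586 lower at that p. Among the 8626 genes at 10 CPM or more, 1746 were higher and 243 lower. DESeq2 called 14.3% of its genes (778 higher and 5436 lower of 43379), and voom called 25.8% higher and 26.4% lower. The 3 lower genes of the list, Zc3h12b, Elavl2 and Elavl3, averaged 0.334, 0.0686 and 0.028 CPM in Ag+Costim. In Ag they were highest in library 3, at 4.32, 6.49 and 4.35 CPM. In Ag+Costim 2 of the 13 lay above Ag without overlap, against 4.48% of all genes tested and 11.3% of the genes at 10 CPM or more. Upf1, the helicase of nonsense-mediated decay with which regnase-1 acts, averaged 94.1 CPM against 55.1 (log2 difference 0.77, edgeR adjusted p = 0.154). Tial1, which binds U-rich RNA, had a log2 difference of 0.31 (edgeR adjusted p = 0.240), near the 0.24 that TMM left as the median of the genes at 10 CPM or more, and 0.027 with total-count scaling. Malt1 itself was at 38.6 to 55.4 CPM in Ag and 51.2 to 64.8 CPM in Ag+Costim (log2 difference 0.25, edgeR adjusted p = 0.301), and it was -0.05 with total-count scaling.

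Of 26 genes of deadenylation, decapping and 5′ decay, edgeR called 0 (13 with an unadjusted p under 0.05, 11 higher and 2 lower), DESeq2 7 and voom 17. Among the 8626 genes at 10 CPM or more, 1746 were higher and 243 lower at that p. Over all genes, DESeq2 called 14.3% (778 higher and 5436 lower of 43379), and voom called 25.8% higher and 26.4% lower. In 5 of the 26 Ag+Costim lay above Ag without overlap, none lay below, and the median difference was 0.30, where 11.3% of the genes at 10 CPM or more lay above and their median was 0.24. Those were Patl1, a decapping factor (20.9 to 28.4 CPM in Ag and 34 to 41.4 CPM in Ag+Costim, log2 difference 0.66, edgeR adjusted p = 0.134), Cnot3 and Cnot7 of the CCR4-NOT complex (0.57 and 0.60), and Edc3 and Edc4 of the decapping machinery (0.29 and 0.55). With total-count scaling the log2 differences were 0.372 for Patl1, 0.265 for Cnot3, 0.368 for Cnot7, 0.00183 for Edc3, 0.256 for Edc4 and 0.15 for Cnot1. Cnot1, the scaffold of the CCR4-NOT complex, overlapped between the groups (log2 difference 0.49, edgeR adjusted p = 0.257). So did the 2 lower genes, Btg1 (-1.76, edgeR adjusted p = 0.227) and Pan3 (-0.79, edgeR adjusted p = 0.23). Btg1 was highest in Ag libraries 1 and 4, at 584 and 732 CPM.

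Among 17 tested mRNAs known as targets of these proteins (Il6 did not pass the filter), edgeR called 0 (2 with an unadjusted p under 0.05), DESeq2 2 and voom 9, with a median of -0.05. Over all 24262 genes tested, 1915 were higher and 2586 lower at that p. Among the 8626 genes at 10 CPM or more, 1746 were higher and 243 lower. DESeq2 called 14.3% of its genes (778 higher and 5436 lower of 43379), and voom called 25.8% higher and 26.4% lower. In 2 of the 17, Ag+Costim lay above Ag without overlap, a share near the 11.3% of the genes at 10 CPM or more. These were Irf4, at 7.95 to 20.6 CPM in Ag and 25.5 to 38.5 CPM in Ag+Costim (log2 difference 0.86, edgeR adjusted p = 0.201), and Myc, at 46.6 to 80.2 and 96.5 to 109 CPM (0.73, adjusted p = 0.149). Il2 was at 1.04 to 2.04 CPM in Ag and 0.936 to 1.49 CPM in Ag+Costim, and its log2 difference was -0.42 (edgeR adjusted p = 0.471). Ifng (-0.34), Tnf (0.07), Icos (-0.13) and Tnfrsf4, the gene of OX40 (0.65), overlapped as well. The direction for Tnf turned under total-count and DESeq2 scaling, among others, and that for Icos without Ag libraries 1 and 4.

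Of 14 early response genes, edgeR called 0 (2 with an unadjusted p under 0.05, 1 higher and 1 lower), DESeq2 1 and voom 9, and 0 of the 14 had groups that did not overlap. Over all 24262 genes tested, 1915 were higher and 2586 lower at that p. Among the 8626 genes at 10 CPM or more, 1746 were higher and 243 lower. DESeq2 called 14.3% of its genes (778 higher and 5436 lower of 43379), and voom called 25.8% higher and 26.4% lower. The median of the 14 was -0.39, and 0.18 without Ag libraries 1 and 4. Fos was at 0.0189 to 3.82 CPM in Ag and 0.560 to 1.17 CPM in Ag+Costim, where the Ag range took in all Ag+Costim libraries (log2 difference -1.05, edgeR adjusted p = 0.517).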

How the data were processed

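RNA of sorted CD8+ T cells was amplified with SMART-Seq v4 and Nextera XT and read in pairs. The authors aligned reads to mm10 with HISAT2 2.1.0, sorted them with SAMtools 1.9 and derived counts with StringTie 2.1.0, per the labels and the study's methods. The deposited gene and transcript values are estimated counts, derived from coverage and not normalized, so totals are not reads. The deposited Whippet table gives PSI as a fraction, 1 per group. Its columns of the difference and its probability hold the authors' comparison and were not used, so the planned probability threshold was replaced by a difference of PSI over 0.05. The 55536 annotated genes were used, and other entries (0.0458% to 0.308% of counts) were left out.

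Counts were tested with edgeR 4.0.16 in R 4.3.3 (quasi-likelihood, filterByExpr, TMM, robust), with Benjamini-Hochberg adjustment over all genes and a threshold of 0.05. DESeq2 1.42.0 and limma 3.58.1 were alternatives. Transcript usage used diffSpliceDGE, with calls at a Simes adjusted p under 0.05 and a share change over 0.1. Shares of transcripts at 10% or more, and of retained intron transcripts, were compared by exact permutation (two-sided) of libraries over 252 splits, for which 0.0079 is the smallest p. Correlations used log2(CPM + 0.5). Scripts were tested on simulated data with less spread between libraries than these data (common dispersion 1.49 in Ag and 0.341 in Ag+Costim). That test does not tell which differences could be found here. No library was dropped or imputed unless stated.

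Members and lists were chosen with earlier results of these data known. Genes named from the lists were those past the threshold or, as none passed, those without overlap, and Il2, Ifng, Tnf, Icos, Tnfrsf4, Malt1, Cnot1 and Fos. Outside that rule, the genes lower at an unadjusted p under 0.05 were named for the related proteins and the decay genes. So were Khsrp and Hnrnpd of the related proteins, which were higher at that p. Leaving out Ag libraries 1 and 4 was chosen after seeing the data. Marker lists were summed per library. The sum of myeloid markers was 38.5 to 130 CPM in Ag and 67.1 to 158 CPM in Ag+Costim, and that of 4 CD4 T cell markers 3.74 to 26.4 and 3.16 to 8.20 CPM.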

Additional observations from a re-analysis of the deposited data

Results flagged for a closer look

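In 38 groups of 5 libraries checked, covering levels and transcript shares, a library lay far from the other 4 in 2 groups, by the gap to its nearest neighbour over the range (limit 0.71), which chance gives in about 1 of 20 groups. Rc3h1-202 took 93.1% of Rc3h1 counts in Ag library 3, against 97.8% in the nearest Ag library, and that library had the lowest total. Rc3h2-203 took 15.7% of Rc3h2 counts in Ag library 2, against 3.18% in the nearest.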

How the results depend on the processing

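Calls on the 7 genes were 0 under each alternative but voom (5), and 0 for usage under each alternative. For the other 4 lists together (70 tested), 0 became 16 with DESeq2 and 44 with voom, and over all genes 6214 and 12670. Leaving out 1 library gave 0 calls at the gene level each time. Genes called for usage over the whole table were 31, 33 to 78 without 1 library, 165 without Ag libraries 1 and 4, 145 with limma, 30 with the replicate block and 19 at 50 counts. PSI events past 0.05 were 8, and 3 past 0.1. Elavl1 stayed above the other 6 genes per length without any 1 library.

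Directions turned as follows, on the log2 scale. Without Ag libraries 1 and 4, Zfp36 was 0.10, Zfp36l1 0.41, Zfp36l2 0.44, Rc3h1 0.02, Icos 0.0853 and Fos 0.0814. With no filter, Zfp36 was 0.14, Zfp36l2 0.0734, Rc3h1 0.0211 and Icos 0.14. With total counts, Zc3h12a was -0.0977, Tnf -0.20 and Malt1 -0.0529, with upper quartiles Zc3h12a -0.00519 and Tnf -0.16, and with voom Zc3h12a -0.22 and Tnf -0.0344. Tnf was -0.057 with DESeq2 and -0.0627 with its size factors. Leaving out 1 library gave Zfp36l2 a range of -0.30 to 0.15, Tnf -0.0435 to 0.18 and Icos -0.25 to 0.0338. Share differences in percentage points ran from -2.74 to 11.8 for Elavl1-204 and -10.0 to 4.29 for Elavl1-201 without 1 library, and without Ag libraries 1 and 4 they were -2, 3.37 and, for Rc3h1-202, 0.367. The cause was not tested. With replicate numbers as a block, the 7 genes had 0 calls and Fos turned to 0.0853. Same-numbered libraries deviated together with r from -0.303 to 0.251, and 0 of 5 was most like its own number. Since Ag libraries 1 and 4 stood apart from the others, this check cannot decide whether same-numbered libraries share an origin. The planned probability threshold of 0.95 was not run, since that column was not used.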
